A study of Mus musculus with 2 samples.

Results

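Cluster 14 of the E13.5 mouse mandibular prominence is a group of 183 cells, taken by the cluster number in the authors' deposited cell annotation, among 6318 cells of that stage and 13417 cells of the whole series. The authors named its lineage Mesenchyme, as they did 8 of the 9 other mesenchymal clusters used here for comparison (clusters 0, 2, 3, 4, 6, 10, 11 and 12), and they named the remaining one, cluster 5, Osteogenic Progenitors. Cluster 14 made up 4.77% of the 3833 cells of these 10 clusters (exact 95% interval 4.12 to 5.50%). A further small cluster named Mesenchyme, cluster 21 with 72 cells, was kept out because its cells held a median of 1833 UMIs, of which 14.5% were mitochondrial.

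The series profiled single cells of the mandibular prominence, the embryonic bud of the lower jaw, from wild-type CD1 mice at embryonic days 11.5 and 13.5, with 1 droplet library (10x Genomics) per stage. Tissue was dissociated in the cold with protease from Bacillus licheniformis, at 3 mg/ml for E11.5 and 5 mg/ml for E13.5. How many embryos were pooled, and their litters and sexes, is not stated in the labels. The 2 stages differ in library and protease concentration as well as in age, which cannot be told apart.

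Jaw mesenchyme comes from cranial neural crest, with a mesodermal contribution to muscle and vessels. Signals from the overlying epithelium and between mesenchymal cells divide it into fields that form cartilage, bone, tooth papillae, tendon, tongue connective tissue and the loose fibrous tissue under skin and oral lining. Fibroblasts of loose connective tissue make fibrillar collagens and the small proteoglycans that organise them, and dermatopontin (Dpt) is a secreted matrix protein that binds such proteoglycans.

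The deposited values are unnormalised UMI counts, each UMI standing for 1 captured RNA molecule. Counts were summed over the cells of a cluster and given as counts per 1000000 UMIs (CPM), and ratios compare cluster 14 with the 3650 cells of the 9 other clusters summed together. Cluster 14 held 1756731 UMIs and the other 9 clusters 32405685. Cells of cluster 14 had a median of 8991 UMIs, 2890 genes and 2.97% mitochondrial UMIs, against 8315, 2766 and 3.02% in the other 9 clusters. The E13.5 library totalled 67838169 UMIs and the E11.5 library 49913485, and 71 cell barcodes occurred in both. With 1 library per stage and cells that are not replicates, no test between groups was possible, so the 95% intervals cover counting error only, and 0 UMIs in cluster 14 allow a level of up to 1.71 CPM (3 counts). A gene with at least 20 UMIs over both sides was taken as measured, and was called higher or lower where it differed by 1.5-fold or more with an interval that left out 1. The clustering had used the expression of these same cells, so every difference between E13.5 clusters below is a description of cluster 14 and supports nothing beyond it.

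Of 13414 measured genes, 1076 (8.02%) were called higher in cluster 14 and 1208 (9.01%) lower; over all of them the log2 ratio had a median of -0.08. Cluster 14 had the highest level of the 10 clusters for 1771 genes, or 13.2% of those measured. These shares are the background against which every list below is read.

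Dpt stood furthest above the other mesenchyme. Its level was 223 CPM in cluster 14, while the 9 other clusters ranged from 0.314 to 13.8 CPM with a median of 1.92 CPM, so no other mesenchymal cluster approached it. The ratio over the 9 clusters together was 90.2 (95% interval 70.7 to 116), and the ratio over cluster 12, the next highest, was 16.2. Outside the mesenchyme Dpt lay between 0 and 3.05 CPM in every E13.5 cluster. In the E13.5 build (GRCm38, also called mm10), Dpt lies on chromosome 1 from 164796644 to 164824266 on the plus strand.

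The promoter of Dpt is shown because this gene sets cluster 14 apart most clearly, beside that of Nppc, a leading gene of cluster 14 that carries a TATA motif. Each sequence holds the 250 bases before the RefSeq start of the gene (GRCm38.p6), at chr1:164796413-164796662 on the plus strand for Dpt and chr1:86670574-86670823 on the minus strand for Nppc, written 5′ to 3′ on the gene's strand. The last bases of the Dpt window lie in the first exon of the GENCODE model, and capitals mark the motif TATAAA.
Dpt: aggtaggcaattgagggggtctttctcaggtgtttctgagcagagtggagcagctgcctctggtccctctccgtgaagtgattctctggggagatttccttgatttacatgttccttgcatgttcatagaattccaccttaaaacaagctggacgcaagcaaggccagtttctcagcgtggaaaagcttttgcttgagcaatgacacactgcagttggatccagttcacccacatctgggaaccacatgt
Nppc: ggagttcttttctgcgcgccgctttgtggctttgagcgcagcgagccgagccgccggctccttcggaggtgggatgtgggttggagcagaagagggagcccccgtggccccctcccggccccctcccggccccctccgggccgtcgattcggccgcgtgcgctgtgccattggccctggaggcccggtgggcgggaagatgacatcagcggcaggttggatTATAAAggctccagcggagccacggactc
Searched on both strands, TATAAA occurred in the window of 2 of the 12 leading genes that were searched (16.7%), Nppc and Dio3. The remaining leading genes were not searched. Of all 32851 promoters of the RefSeq promoter table, 12.4% held TATAAA. That share counts promoters and the first counts genes, so the 2 are not directly comparable. The absence of TATAAA from the Dpt window says only that these letters do not occur there.

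The 15 genes with the highest ratios, called the leading genes here, were Dpt, Dmrt2, Cbln2, Nppc, Plac1, Atp1b1, Nxnl2, Npas3, Sema3c, Dio3, Cd34, Fgf7, Lox, Akap12 and Cdc42ep2. Each had its highest mesenchymal level in cluster 14, and the ratios ran from 7.31 for Cdc42ep2 to 90.2 for Dpt. Dmrt2, a DM-domain transcription factor known from somite and skeletal development, stood at 64.9 CPM against 2.38 CPM in the other mesenchyme (ratio 27.3, interval 20.3 to 37.0), and the next cluster, cluster 2, reached 6.98 CPM. Nppc, which encodes C-type natriuretic peptide, stood at 61.5 against 3.83 CPM (ratio 16.1, interval 12.3 to 21).

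Several leading genes encode secreted or surface proteins. Cbln2, a secreted cerebellin family protein known as a synapse organiser, had 64.9 CPM in cluster 14 against 3.52 CPM (ratio 18.4, interval 14.1 to 24.1). Sema3c, a secreted semaphorin that guides axons and migrating cells, had 76.3 against 8.92 CPM (ratio 8.55), and Fgf7, a fibroblast growth factor made by mesenchyme and received by epithelium, had 64.3 against 8.64 CPM (ratio 7.44, interval 5.93 to 9.29). Sema3c and Fgf7 were higher still in cluster 19, named Tongue Muscle, at 109 and 99.0 CPM. The leading level therefore holds within the mesenchyme and not across the whole prominence for these genes.

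Cd34, a sialomucin of endothelium and of many connective tissue fibroblasts, had 241 CPM in cluster 14 against 31.3 CPM in the other mesenchyme (ratio 7.70, interval 6.86 to 8.64). Cluster 3 came next at 73.2 CPM, and the endothelial cluster 17 reached 438 CPM. Lox, the enzyme that crosslinks collagen and elastin, stood at 186 against 25.3 CPM (ratio 7.34, interval 6.44 to 8.36). Dio3, the deiodinase that inactivates thyroid hormone, stood at 108 against 13.5 CPM (ratio 7.94, interval 6.66 to 9.44), with 1.70 to 27.2 CPM across the 9 other clusters. Dio3 has an antisense neighbour, Dio3os, and whether counting used strand is not stated. Neither Lox nor Dio3 reached the cluster 14 level in any other mesenchymal cluster.

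**Figure D1:**
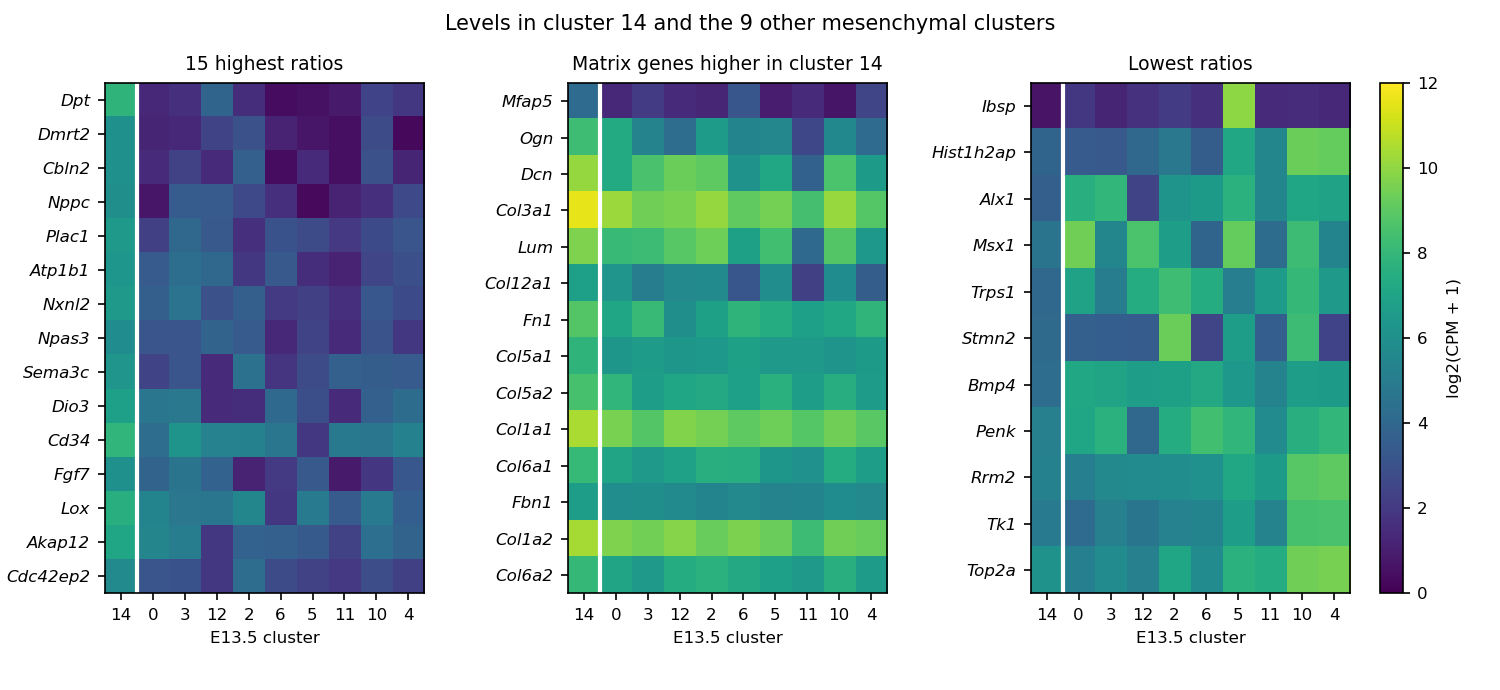
Heat map of levels, as log2(CPM + 1), in cluster 14 (first column) and the 9 other E13.5 mesenchymal clusters (columns). Rows of the left, middle and right panels are the leading genes, the other matrix genes called higher and the lowest genes. Dpt, at 223 CPM in cluster 14, does not exceed 13.8 CPM elsewhere, while Msx1 and Alx1 are high in several other clusters and low in cluster 14.

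The genes furthest below the other mesenchyme were jaw patterning factors, a bone matrix gene and cell cycle genes. Msx1, a homeobox factor of distal jaw and dental mesenchyme, had 23.9 CPM in cluster 14, while the other 9 clusters ranged from 13.5 CPM in cluster 6 to 671 CPM in cluster 0. The others summed held 10.4 times the level of cluster 14 (interval 7.69 to 14.4). Alx1, a homeobox factor of the facial midline, was 12-fold lower (interval 7.75 to 19.6), at 11.4 CPM against a range of 4.59 to 248 CPM. For both genes at least 1 other cluster lay below cluster 14, so the low level was shared.

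Bmp4 and Trps1 were lower in cluster 14 than in every other mesenchymal cluster. Bmp4, a secreted bone morphogenetic protein, had 18.8 CPM in cluster 14 against 40.7 to 149 CPM in the other clusters, a level 5.75-fold lower than in the 9 summed (interval 4.08 to 8.36). Trps1, a GATA-type repressor of cartilage and hair follicle development, had 15.4 CPM against 33.3 to 313 CPM, 8.98-fold lower (interval 6.16 to 13.6). Ibsp, which encodes bone sialoprotein, was represented by 1 UMI in cluster 14, and its 997 CPM in cluster 5 supplies nearly all of the reference level; without cluster 5 it was not called. Among the other lowest genes were Hist1h2ap, Stmn2, Penk, Rrm2, Tk1 and Top2a, between 3.78-fold (Top2a) and 13.3-fold (Hist1h2ap) lower. For each of them at least 1 other mesenchymal cluster lay below cluster 14. Stmn2, at 16.5 CPM, was the 4th highest of the 10 clusters, and its reference level came largely from clusters 2 (633 CPM) and 10 (298 CPM). Cluster 14 ranked 6th for Top2a and 7th for Hist1h2ap. Hist1h2ap is 1 of a family of near-identical histone genes, so its count is uncertain.

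Fibrous matrix genes were higher in cluster 14 as a group. Of 26 listed and measured, 15 were called higher and 1 lower, and the 15 include Dpt, a leading gene chosen for its ratio. The median log2 ratio was 1.03 against -0.08 over all measured genes. Cluster 14 had the highest of the 10 levels for 16 of the 26. Col3a1, the fibrillar collagen of compliant connective tissue, stood at 3052 CPM in cluster 14 while the other clusters ranged from 351 to 1170.4 CPM with a median of 720.4 CPM, and its ratio was 3.88 (interval 3.77 to 4.00). All 9 other clusters were below cluster 14 for this gene.

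Among small proteoglycans that bind collagen fibrils, the 3 on the matrix list were called higher. Dcn (decorin) had 1093 CPM against 12.3 to 623 CPM in the other clusters (ratio 4.43, interval 4.22 to 4.66), Ogn (osteoglycin) 310 against 5.09 to 159.7 CPM (ratio 5.32), and Lum (lumican) 816 CPM against 297 CPM in the others together (ratio 2.75). Proteoglycans of other lists differed: Omd was at 3.98 CPM (0.923 to 28.1), Kera at 11.4 CPM (0 to 70.5) and Fmod at 1 UMI. Among collagens, Col1a1 had a ratio of 2.36, Col1a2 2.03, Col5a1 2.52, Col5a2 2.44, Col6a1 2.08 and Col12a1 2.70. Fn1 (fibronectin) had a ratio of 2.61 and the microfibril gene Fbn1 2.04, whereas Fbn2 (1.40), Postn (1.28), Mfap2 (1.26), Mfap4 (1.24), Fbln1 (1.06), Col14a1 (1.05) and Eln (0.78) were called in neither direction. Fbln5, which assembles elastic fibres, was the member called lower, at 51.8 against 96.0 CPM. Collagen genes made up 8 of the 15 members called higher.

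General mesenchyme markers were checked against the authors' lineage name. Of 12 markers, 6 were called higher (Col1a1, Col1a2, Col3a1, Dcn, Lum and Vim) and 2 lower, and none was at 0 in cluster 14. The 2 lower ones were the paired-type homeobox factors Prrx2, at 16.5 CPM against 61.3 to 95.6 CPM in the other clusters (4.92-fold lower), and Prrx1 (ratio 0.65). Twist1, a helix-loop-helix factor of cranial mesenchyme, had a ratio of 1.17 and was called in neither direction.

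**Figure D2:**
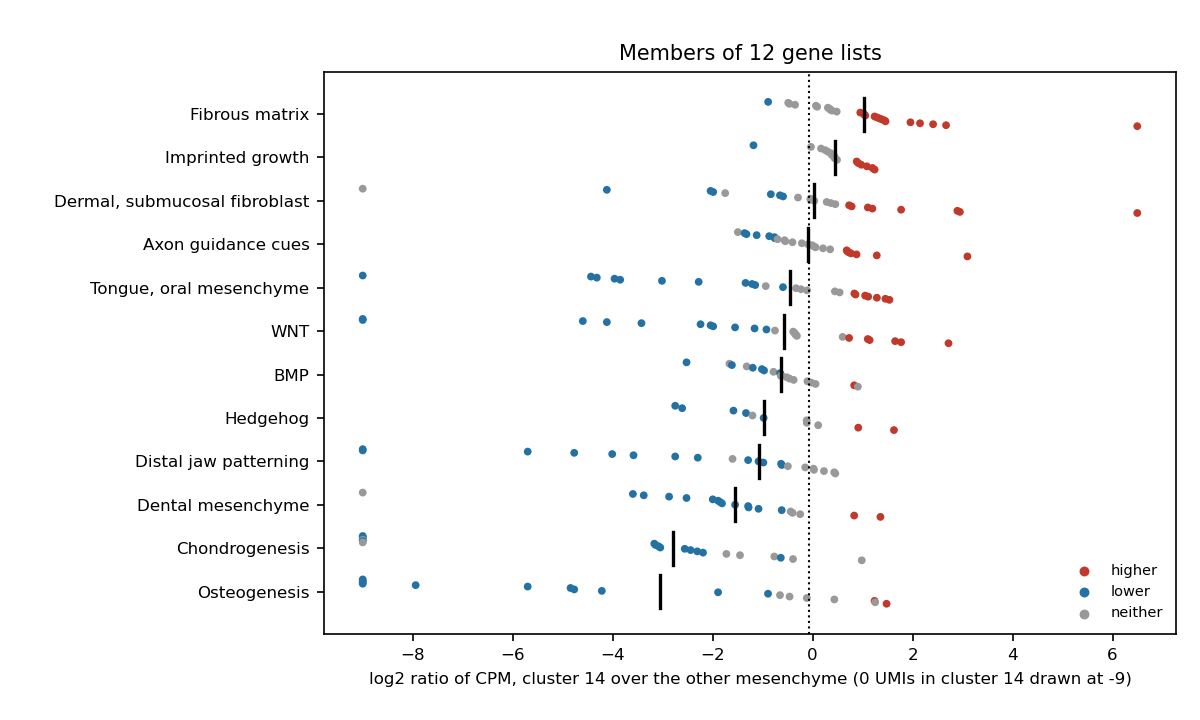
Log2 ratio of cluster 14 over the 9 other E13.5 mesenchymal clusters for the measured members of 12 gene lists (points coloured by call, black bars at list medians, dotted line at the median of all measured genes, members with 0 UMIs in cluster 14 drawn at the left edge). Fibrous matrix members lie mostly above 0 (median 1.03), and chondrogenesis and osteogenesis members mostly below.

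Cartilage genes were mostly low. Of 20 measured cartilage genes none was called higher and 13 were called lower, and the list median log2 ratio was -2.80, or -1.73 with genes at 0 UMIs placed at the floor of 3 counts. Sox9, the factor that starts cartilage formation, had 5.12 CPM in cluster 14 against 23.4 CPM (4.57-fold lower, interval 2.40 to 10.04), within a range of 1.44 to 62.9 CPM over the other clusters. Col2a1, the main cartilage collagen, was 4.95-fold lower, and Col9a1, a minor one, 5.43-fold lower. Cluster 14 had the lowest summed level of this list of the 10 clusters, 126 CPM, but the lowest level for only 3 of the 20 genes.

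Bone genes divided by kind, and their summed level was not low, at 2901 CPM in cluster 14 against 963 to 3613 CPM in the other clusters. Of 18 measured, 11 were called lower, and the 2 called higher were Sparc (1155 against 277 to 509.9 CPM in the other clusters, ratio 2.79), which encodes osteonectin, and Col1a1, both of which fibroblasts also make. The factors that commit cells to bone were scarce: Sp7 (osterix) had 0 UMIs in cluster 14, at least 10.8-fold lower than the other mesenchyme, and Dlx6 was at least 5.08-fold lower. Runx2 had 3.98 CPM, 3.71-fold under the 9 clusters together, but their median was 3.39 CPM and 89.4 CPM in cluster 5 raised the sum; the medians of Sp7 (1.68 CPM) and Dlx6 (2.46 CPM) were low as well. Much of the reference level of this list comes from cluster 5: without it 6 of 15 measured bone genes were called lower and the median log2 ratio was -0.22, and 5 of 16 cartilage genes were called lower with a median of -1.57.

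Tooth and distal jaw patterning genes were also mostly lower than in the 9 other clusters summed. In the dental mesenchyme list 13 of 19 were called lower and 2 higher (median log2 ratio -1.55). In the distal jaw list 13 of 21 were called lower and none higher (median -1.08). Cluster 14 had the lowest of the 10 levels for 3 of the 19 and 6 of the 21, so it was not the lowest cluster for most of them. Lhx8, a LIM-homeobox factor of tooth-forming and palatal mesenchyme, was 3.51-fold lower at 31.9 against 112 CPM. The distal factor Hand2 had a ratio of 0.65 and the nuclear receptor Nr2f2 0.51. Gsc (0.90), Meis2 (1.02) and Nr2f1 (1.01), which also mark regions of the arch, were called in neither direction. The dental genes called higher were both secreted: Fgf10, at 22.2 against 8.67 CPM (ratio 2.56, interval 1.78 to 3.59), and the BMP and WNT antagonist Sostdc1, at 388 against 218 CPM (ratio 1.78, interval 1.64 to 1.93).

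Genes of tongue and oral mesenchyme moved in both directions, with 7 of 24 called higher and 11 lower (median log2 ratio -0.46). The homeobox factor Shox2 had 124 CPM in cluster 14 against 5.35 to 114 CPM in the other clusters (ratio over all 9 of 2.90, interval 2.50 to 3.35). Irx5 (2.74), Tbx15 (2.44), Irx3 (2.16), Ebf3 (2.07), Ebf1 (1.81) and Foxp2 (1.78) were the other factors called higher. Forkhead genes of oral mesenchyme were at the other end, with Foxf1 at 2.85 against 56.7 CPM (19.9-fold lower, interval 8.53 to 61.5) and Foxf2 at 3.42 against 53.2 CPM (15.6-fold lower). Tbx22 had 0 UMIs, at least 3.16-fold lower. Osr2 (1.45) and Osr1 (0.93), 2 related zinc finger factors, were called in neither direction, although Osr1 stood at 495 CPM in cluster 14. Foxp2 and Foxf1 show that members of 1 gene family were called in opposite directions.

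Markers of dermal and submucosal fibroblasts gave no common direction, with 8 of 23 called higher and 6 lower and a median log2 ratio of 0.03. Dpt, Cd34, Fgf7, Dkk2, Dlk1, Cxcl12 (2.15), Igf1 (1.72) and Rspo1 (1.66) were the 8 called higher, and the first 3 of them are leading genes chosen for their ratio. Wif1, a secreted WNT inhibitor, was 17.3-fold lower with 5 UMIs (interval 7.42 to 53.5), and Lmo4 (1.57-fold) and Tcf4 (1.51-fold) were lower as well. Among 13 measured joint genes, Gdf6 (ratio 4.26), Erg (4.10) and Sfrp2 were called higher, and of 9 measured tendon genes Tnmd (ratio 3.11, interval 2.20 to 4.31) and Thbs2 (1.83) were called higher and 4 lower. Scx, the factor that marks tendon progenitors, had 3 UMIs in cluster 14 (ratio 0.22, interval 0.046 to 0.665).

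Of 11 hedgehog pathway genes, 2 were called higher and 5 lower, or 2 and 2 after thinning. Ptch1, the hedgehog receptor that the pathway itself induces, had 8 UMIs in cluster 14, a level of 4.55 CPM against 6.31 to 76.3 CPM in the other clusters, and was 6.11-fold lower than in all 9 together (interval 3.09 to 14.2). With each cell reduced to 2000 UMIs the Ptch1 ratio was 0.60 and was no longer called. The pathway factors Gli1 (0.33), Gli2 (0.51) and Gli3 (0.40) were called lower, each with the lowest level of the 10 clusters. The coreceptors Cdon, at 62.0 against 20.1 CPM (ratio 3.09, interval 2.50 to 3.79), and Gas1, at 591 against 314 CPM (ratio 1.88), were called higher, and the signal transducer Smo (0.92) and the coreceptor Boc (1.08) were called in neither direction.

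WNT pathway genes included some of the higher ligands and antagonists of cluster 14. Wnt2, a ligand, had 60.9 CPM against 0.424 to 32.2 CPM in the other clusters (ratio 6.58, interval 5.23 to 8.23). The antagonists Dkk2, at 178 against 52.2 CPM (ratio 3.41), and Sfrp2, at 801 against 255 CPM (ratio 3.14), were called higher, although cluster 12 had more Sfrp2, 920.0 CPM. Other antagonists were lower, among them Dkk1 (4.12-fold), Frzb with 2 UMIs (ratio 0.041, interval 0.0050 to 0.15) and Wif1. Lef1, a transcription factor of the pathway that is also its target, was 2.93-fold lower, Tcf7 at least 3.25-fold lower, and Axin2, a common readout, had a ratio of 0.79 and was called in neither direction. Over the list 6 of 24 were called higher and 11 lower (median log2 ratio -0.57).

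Of 19 BMP pathway genes, 7 were called lower and 1, Sostdc1, higher (median log2 ratio -0.64). Id1, an immediate target of BMP signalling, stood at 83.1 CPM, below all other clusters (95.2 to 243 CPM), and was 2.02-fold lower than in the 9 together. Id3, a related target, was 1.57-fold lower. In the FGF list, Fgf7, Fgf10 and Spry2 (ratio 2.10) were called higher and 5 of 18 lower; among these Dusp6, a target of FGF signalling, had 6 UMIs and was 8.30-fold lower (interval 3.80 to 22.7), and Etv4, another, had 1 UMI (ratio 0.019, interval 0.00048 to 0.106). Of 14 retinoid genes 4 were called lower and none higher. Of 10 Notch genes, Notch2 (1.58) and Hes1 (1.57) were called higher, both close to the 1.5-fold limit, and 3 lower. Notch2 lost its call after thinning and in G1 cells alone, and Hes1 lost it without cluster 5 in the reference. Axon guidance genes split 7 higher and 6 lower of 25, with Sema3c, Ntn1 (2.43) and Efna5 (1.84) among the higher and the semaphorin receptor Nrp2 2.57-fold lower.

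Imprinted growth genes were mostly at or above the level of the other mesenchyme, with 6 of 16 called higher and 1 lower (median log2 ratio 0.44). Dlk1, a Notch-like surface protein of growing mesenchyme, stood at 2802 CPM against 136 to 2515 CPM in the other clusters (ratio 2.29, interval 2.22 to 2.36), and Meg3, a noncoding RNA, at 5280.3 against 1068 to 3760.2 CPM (ratio 2.12). Mirg, another noncoding RNA, had a ratio of 1.84. Dlk1 (109452823 to 109463336) and the leading gene Dio3 (110279068 to 110281097) lie near one another on chromosome 12, in the imprinted domain that also holds Meg3 and Mirg. Zim1 (2.36), Mest (1.96) and Plagl1 (1.88) were higher too, H19 (0.98) and Igf2 (1.36) were called in neither direction, and Nnat was 2.27-fold lower.

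Few cells of cluster 14 were cycling by the authors' phase calls. Of its 183 cells, 28 (15.3%, exact 95% interval 10.4 to 21.3%) were in S or G2M, against 44.6% (43.0 to 46.2%) of the 3650 other cells. Clusters 0 (14.1%) and 12 (14%) had similar shares, and clusters 4 and 10 consisted of S or G2M cells alone. With cells reduced to 2000 UMIs, an Mki67 or Top2a UMI was found in 11% of cluster 14 cells (6.88 to 16.5%) and 25.8% of the others. Of 42 S-phase genes 31 were called lower and none higher, and of 52 G2M genes 48 were lower and none higher. When G1 cells alone were compared, 6 of 40 and 5 of 47 were lower, beside 847 of all 12353 measured genes. Phase went with the level of these genes: in cluster 14 the G2M genes summed to 1122 CPM in G1 cells and 19055 CPM in G2M cells. Choosing G1 cells thus takes out cells high in them, so the fewer calls add nothing to the phase shares.

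**Figure D3:**
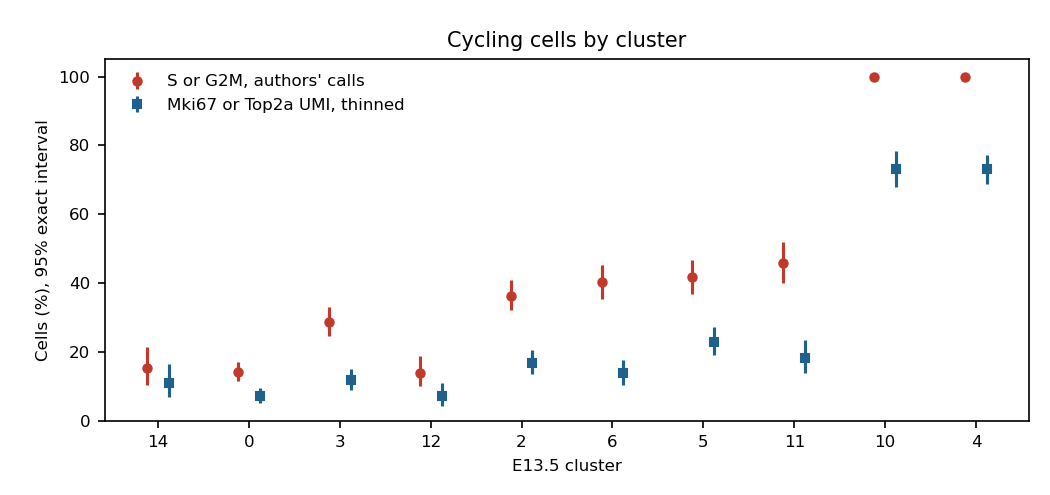
Share of cells in S or G2M by the authors' phase calls, and share with an Mki67 or Top2a UMI after thinning, in cluster 14 and the 9 other E13.5 mesenchymal clusters, with exact 95% intervals. Cluster 14 lies at 15.3%, beside clusters 0 and 12, and clusters 4 and 10 lie at 100%.

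Markers of most other cell types were near the level of the rest of the mesenchyme. The summed epithelial markers came to 173 CPM in cluster 14 (117 to 272 CPM in the other 9 clusters, 11656 CPM in the epithelial cluster 16), and the muscle markers to 116 CPM (91.4 to 128). The 10 endothelial markers summed to 35.3 CPM, just above the 19.1 to 34.9 CPM of the other clusters and far under the 4202 CPM of cluster 17. Cdh5, Emcn, Esam and Tie1 were at 0 UMIs in cluster 14, while Tek (18 UMIs, ratio 23.7, interval 11.1 to 51.5) and Kdr (5 UMIs, ratio 3.84, interval 1.15 to 10.3) were called higher, and the part of endothelial RNA in the Cd34 level was not tested. Macrophage markers summed to 12 CPM (7.59 to 12.6), with Csf1r, Cx3cr1 and Ptprc at 0, against 9610 CPM in cluster 20. Erythroid markers summed to 1839 CPM (1734 to 2456), against 883524 CPM in blood cluster 13. Schwann cell markers (19.9 CPM, 5.23 to 80.8) and neuronal markers (165 CPM, 59.4 to 716) lay inside the range of the other clusters. The mast cell list was above that range, at 12 CPM against 0.573 to 5.66 CPM. It summed to 1024 CPM in cluster 20, which the authors named Mast Cells although its macrophage sum was higher. In cluster 14 Hdc gave 7.97 CPM of the mast cell sum and Cpa3 was at 0, and the part of such RNA in the results was not tested. Melanocyte markers summed to 1.14 CPM, and of 16 measured perivascular genes Myh11, Des and Myl9 were called higher and Cox4i2 lower.

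Dpt varied from cell to cell within cluster 14. At least 1 Dpt UMI was found in 99 of 183 cells (54.1%, exact 95% interval 46.6 to 61.5%), with up to 14 UMIs in a cell, against 64 of 3650 cells (1.75%) in the other mesenchyme. In blood cluster 13, which should lack Dpt, 2 of 207 cells (0.966%) held a UMI at a median depth of 18517 UMIs, and the interval of that share (0.117 to 3.45%) includes the share of the other mesenchyme. Cluster 12 lay above it, with Dpt in 6.79% of its cells. With every cell reduced to 2000 UMIs, which left out 2 and 35 cells, the shares were 29.3% and 0.443%. Unthinned, Cd34 was detected in 78.1% of cluster 14 cells and 19.7% of the others, Lox in 73.8% and 15.5%, and Dmrt2 in 37.7% and 1.62%.

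Counting the 15 leading genes together separates the cells more fully. After thinning, the cells of cluster 14 held a median of 3 UMIs of these genes and the other cells a median of 0. At least 5 such UMIs were found in 45 of 181 cluster 14 cells (24.9%) and in 1 of 3615 others, and 17 cluster 14 cells held none. Since these genes were chosen from the same cells, the separation is a description. By phase, the summed level of the 15 genes was 1674 CPM in the G1 cells, 1168 CPM in S and 1279.7 CPM in G2M.

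**Figure D4:**
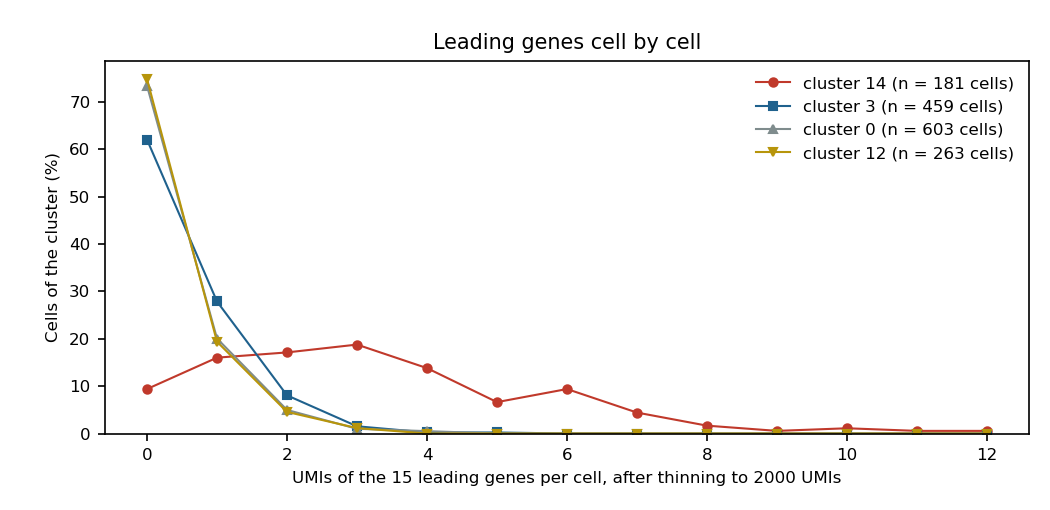
Distribution over cells of the number of UMIs of the 15 leading genes after thinning each cell to 2000 UMIs (x axis), as a percentage of the cells of each cluster (y axis), for clusters 14, 3, 0 and 12. The median is 3 in cluster 14 and 0 in each of the other 3 clusters.

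Cells of cluster 14 with a Dpt UMI were compared with the 84 without, a split made by expression within the cluster and given as a description. Of 2390 genes with at least 100 UMIs, 76 (3.18%) were higher and 62 (2.59%) lower in the cells with Dpt. Nppc was 102 CPM in the cells with Dpt and 14.7 CPM in those without, and Agtr2, the type 2 angiotensin receptor, 572 and 158 CPM. Plac1 (54.3 and 126 CPM), Sostdc1 (271 and 523 CPM) and the fatty acid binding protein gene Fabp5 (1286 and 2261 CPM) were lower in cells with Dpt. Median depth was 8844 UMIs in the former and 9187.5 in the latter, and 86 and 69 cells were in G1. Nppc and Agtr2 thus followed Dpt across cells, while Plac1, also a leading gene of the cluster, lay higher where Dpt was not detected. Plac1 was found in only 40 of the 183 cells, with up to 21 UMIs in 1 cell, so its difference rests on few cells.

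The clusters most like cluster 14 were clusters 0 and 3, with Spearman correlations of log2(CPM + 1) across the 2000 most abundant genes of 0.925 and 0.915. Clusters 12 (0.894) and 2 (0.888) followed, and cluster 4 was least alike (0.791). These are correlations across genes in 1 library, given as a description.

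Against cluster 0, 887 of 10571 measured genes (8.39%) were called higher in cluster 14 and 719 (6.80%) lower. Dpt had the largest ratio, 142, followed by Nppc (91.6, interval 30.5 to 451), Dmrt2 (48.4) and Cbln2 (36.3), all resting on 8 or fewer UMIs in cluster 0. Agtr2 stood at 379 against 15.4 CPM (ratio 24.6, interval 19.2 to 32.0), but it was also high in clusters 6 (308 CPM), 3 (274 CPM) and 4 (186 CPM). On the lower side were Msx1 (28.1-fold), Alx1 (16.8-fold), Hpgd, which degrades prostaglandins (14.1-fold), Trps1 (7.79-fold) and Bmp4 (7.57-fold). Hpgd, at 10.8 CPM in cluster 14, was lower still in clusters 3, 4, 6 and 11. Clusters 0 and 14 shared a low share of cycling cells and differed most in Msx1 and Alx1 on one side and Dpt on the other.

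Against cluster 3, 814 of 10426 genes (7.81%) were called higher and 920 (8.82%) lower. After Dpt (ratio 104) and Dmrt2 (40.6) came Irx1 (33.0, interval 15.5 to 84.0), Vgll3 (31.7) and Emx2 (28.6), 3 regulators of transcription. Each of these ratios rests on 18 or fewer UMIs in cluster 3. Irx1, Vgll3 and Emx2 were higher still in cluster 2, at 111, 261 and 123 CPM, so they set cluster 14 apart from cluster 3 and not from all mesenchyme. Alx1 was 21.8-fold lower, Nrp2 7.18-fold, Bmp4 6.89-fold, Asb4 6.76-fold and Foxp1 6.52-fold. Nrp2, Asb4 and Foxp1 were lower still in cluster 0, at 10.7, 6.04 and 12.3 CPM. Alx1 and Bmp4 were thus among the lowest genes against both nearest clusters, whereas Msx1, at 671 CPM in cluster 0, had 43.9 CPM in cluster 3.

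The E11.5 cells took no part in the E13.5 clustering. The 15 leading genes summed to 1584 CPM in cluster 14 and to 70.0 to 282 CPM (median 151 CPM) in the 9 other E13.5 mesenchymal clusters. Outside the mesenchyme of E13.5, endothelial cluster 17 reached 586 CPM and cluster 19, named Tongue Muscle, 286 CPM. The authors named 12 clusters of E11.5 Mesenchyme/Neural Crest. Cluster 17 of these, with 26 cells, was kept apart with earlier results known, because its Schwann cell markers summed to 1322 CPM, against 2.03 to 15.9 CPM in the other 11, and its leading genes summed to 120 CPM, of which Akap12 gave 81.6 CPM. In the other 11 clusters the sum lay between 17.8 and 107 CPM, the highest in cluster 6 and the next at 47.9 CPM. Of the 15 genes, 8 had their highest level of these 11 clusters in cluster 6, or 7 with cluster 17 included. In this sum cluster 14 of E13.5 stood 14.8-fold above E11.5 cluster 6 and 13.1-fold above E11.5 cluster 17. The endothelial cluster 13 of E11.5 summed to 567 CPM, of which Cd34 alone gave 464 CPM.

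Dpt itself was almost undetected at E11.5, with 6 UMIs over the cells of the 11 clusters, or 0.161 CPM (95% interval 0.0590 to 0.350). E11.5 cluster 6 was also the E11.5 cluster most like cluster 14 across all abundant genes, with a Spearman correlation of 0.755, ahead of clusters 5 (0.724) and 8 (0.719). Clusters 6, 5 and 8 also had the highest G1 shares of the E11.5 clusters named mesenchyme (67.7, 68.7 and 64.6%). Cluster 6 had the lowest median depth of the 12 E11.5 clusters named mesenchyme, 4374 UMIs, against 7632 in the deepest of the 11 and 9385 in cluster 17. The parts of phase and depth in these values were not tested.

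**Figure D5:**
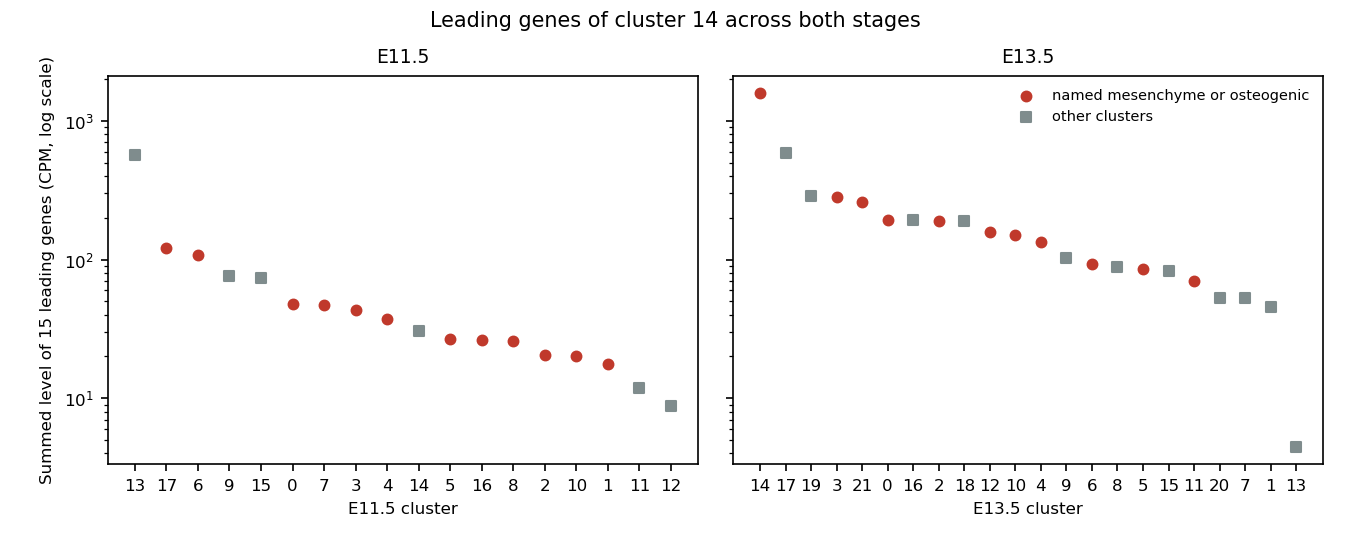
Summed level of the 15 leading genes (CPM, log scale) in each cluster of the E13.5 and E11.5 libraries. Cluster 14 of E13.5 stands at 1584 CPM, and E11.5 clusters 6 and 17 at 107 and 120 CPM.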

How the data were processed

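Cells of the mandibular prominence were profiled in 1 library per stage. The authors deposited UMI counts per gene and cell, without normalization, and a table of each cell's cluster, lineage name and phase with the mitochondrial share as a fraction, printed here as a percent. The submitters' processing notes name Cell Ranger 2.0.0, Seurat 2.3.4 and mm10, with no role or order. Counts were summed per cluster and scaled to 1000000; ratio intervals are exact conditional binomial, shares exact Clopper-Pearson and levels exact Poisson, at 95%. Doublets had no caller applied in the main comparison; the highest 5% of Scrublet scores (scanpy 1.11.5) were left out as an alternative. Named genes were the 15 highest ratios (at least 50 UMIs and 50 CPM in cluster 14, interval above 2-fold, level at least 0.2 of the highest non-mesenchymal cluster), the 12 lowest (at least 100 CPM in the reference), the 5 highest and 5 lowest against each nearest cluster, and the extremes and the transcription factors or ligands of each list; other list members and the genes of the split by Dpt were named after their values were seen. The cluster and lists were chosen with earlier results of these data known. Python 3.11.15 ran the calculations (scipy 1.17.1, numpy 2.4.6, pandas 2.3.3). The ratios and calls were tested on sums simulated with counting error only, which does not cover variation from cell to cell. Results for some genes under these rules are not reported here.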

Additional observations from a re-analysis of the deposited data

How the results depend on the processing

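No paired analysis was possible because there is 1 library per stage. With cells thinned to 2000 UMIs, 580 genes were called higher and 580 lower. Of these higher genes 430 are shared with the full-depth calls, and the lower genes too are shared only in part. Some genes in both directions were thus called only after thinning, and the cause was not tested. With a 2-fold call 669 genes were higher and 748 lower, all of them also called at 1.5-fold. G1 cells alone gave median log2 ratios of -0.23 for S-phase and -0.30 for G2M genes, and leaving clusters 4 and 10 out of the reference, an alternative chosen after seeing the data, gave -0.40 and -0.47, since these 2 clusters hold cycling cells alone. Without cluster 5 the cartilage median was -1.57. Of 183 named genes 120 were called, and 113 of their 1440 alternative values, in 57 genes, were no longer called. None of these was among the 15 leading genes, and no called value changed sign. Among the lowest genes, Ibsp without cluster 5 (ratio 0.26), Hist1h2ap (0.67) and Top2a (0.77) in G1 cells, and Top2a without clusters 4 and 10 (0.67) lost the call. The hedgehog list had 2 lower genes in place of 5 after thinning. Genes called higher were 47.1% of all calls, and between 41.5 and 50.9% under the alternatives. Clusters 0 and 3 stayed the most alike with 500 or 5000 genes. Depth limits genes under about 20 UMIs over both sides, which were not compared.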

Other observations

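Single genes of other lineages stood out in cluster 14. Tek, an angiopoietin receptor of endothelium, had 18 UMIs in cluster 14 (10.2 CPM) against 0.241 to 0.895 CPM in the other mesenchymal clusters, and Hdc, the histamine-forming enzyme of mast cells, had 14 UMIs (7.97 CPM) against at most 0.895 CPM. Myh11, a smooth muscle myosin, had 11 UMIs (6.26 CPM) against at most 1.27 CPM. The endothelial genes Cdh5 and Emcn and the mast cell gene Cpa3 were at 0 UMIs in the same cells. Snap25, a protein of synaptic vesicle release, stood at 50.1 CPM against 0.424 to 41.2 CPM. At least 3 UMIs from a single marker list were found in 21.3% of cluster 14 cells and 20.7% of the others. The lists counted were epithelium, endothelium, muscle, macrophage and Schwann cell, without Des and Ednrb. Hdc, Cpa3, Myh11 and Snap25 are on none of these lists, so the shares do not cover them.

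Among immediate early genes that dissociation can induce, Jun stood at 194 against 58.8 CPM (ratio 3.3, interval 2.93 to 3.71) and Klf6 had a ratio of 2.09, while Ier2 was lower (0.38) and 12 of 15 measured members were called in neither direction. Of 20 glycolysis and hypoxia genes 3 were called higher and 5 lower, with Gapdh (ratio 0.64) and Eno1 (0.58) at their lowest level of the 10 clusters. A UMI of Xist, which is expressed from the inactive X chromosome of female cells, was found in 33.3% of cluster 14 cells and a UMI of Y-linked genes in 36.6%, with both in 3 cells, against 30.4% and 25.8% in the other mesenchyme.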
